A study of Mus musculus with 6 samples.

Results

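The Myeloid class of the deposited annotation held 73 of 7300 lymph node cells (1.0%) from 7 pregnant mice. A cell is a member when the deposited cell table names its cell type Myeloid. The values are UMI counts (unique molecular identifiers, 1 per captured transcript) from droplet-based single-cell RNA sequencing. Within the class, cells with UMIs of Lyz2, Hbb-bs, H2-Aa or the CD3 genes Cd3d, Cd3e and Cd3g were followed by pool and by lymph node. The 4 Aire-DTR mice (8, 36, 4 and 7) carry a diphtheria toxin receptor under the control of Aire, and the 3 WT mice (6, 97 and 1) do not. Both groups received diphtheria toxin over the first 9 days of gestation, and all dams had been bred with BALB/c males. Tissue was taken at embryonic day 9.5 from the uterine-draining lymph node (udLN) and the brachial lymph node (brLN) of each mouse. The cell table records the pregnancy of mouse 4 as resorbed and those of mice 8, 36 and 7 as IUGR. Pool 1 held mice 8 and 6, pool 2 held mice 36 and 97, and pool LN held mice 4, 7 and 1. Each pool was run in 2 wells.

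A fault of the deposited table bears on every count. All 2127 cells of well 1 of pool LN are listed 2 times, with identical counts of every gene and identical annotation, so the 9427 rows hold 7300 distinct cells. For the Myeloid class, 92 rows reduce to 73 cells, and 19 cells are those listed again. Each cell was counted once here. A further 208 barcode sequences occurred in more than 1 well, in 419 cells of which 3 were Myeloid, and 0 such pairs had identical counts. The sort is described as CD45+ CD3+ in the labels and as CD45+ in the series design. Aire, the gene that places the toxin receptor, had 8 UMIs in all cells and 0 in the 73 Myeloid cells, which allows a share of up to 4.11% of cells with a UMI, so it could not check the genotype labels. The median Myeloid cell held 3381 UMIs (range 525 to 9892) from 1288 genes, and all other cells a median of 2909 UMIs. The wells held 4 to 19 Myeloid cells each.

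Myeloid cells arise from bone marrow progenitors. Neutrophils are short-lived granulocytes that carry the calprotectin subunits encoded by S100a8 and S100a9 and circulate in blood, from which they can enter lymph nodes. Monocytes and macrophages take up debris and degrade it with enzymes such as lysozyme, encoded by Lyz2. Dendritic cells present antigen on MHC class II, whose alpha chain H2-Aa encodes, and prime T cells in lymph nodes. Plasmacytoid dendritic cells, marked by Siglech, make type I interferon. Hbb-bs encodes the beta chain of haemoglobin and is a gene of red cells. The CD3 genes encode the signalling chains of the T cell receptor.

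Lyz2 (chromosome 10, 117277331 to 117282321, GRCm38) had a UMI in 42 of the 73 cells, 57.5% (95% exact binomial interval 45.4% to 69.0%). Binomial intervals here cover counting error only. In the T cell classes of the same libraries, which should lack Lyz2, 0.306% of 4906 cells had a UMI at a median of 3221 UMIs per cell. Hbb-bs (chromosome 7, 103826534 to 103828096) had a UMI in 39 cells, 53.4% (41.4% to 65.2%), against 32.7% of T cells. These 2 shares mix the pools in unlike parts, since pool LN held 28 of the 73 Myeloid cells and 2904 of the 4906 T cells. In pools 1, 2 and LN Hbb-bs was found in 84.6%, 87.5% and 0% of Myeloid cells and in 84.4%, 75.4% and 1.38% of T cells. H2-Aa (chromosome 17, 34282744 to 34287823) had a UMI in 20 cells, 27.4% (17.6% to 39.1%), against 3.85% of T cells. The CD3 genes lie together on chromosome 9 (Cd3g from 44969572, Cd3d from 44981786 and Cd3e from 44998740). At least 1 CD3 UMI was found in 30 cells, 41.1% (29.7% to 53.2%), against 9.22% of 2267 B cells at a median of 2261 UMIs. With each cell thinned to 1000 UMIs, which left out 12 Myeloid cells and 60 T cells, the shares in the remaining 61 Myeloid cells were 45.9% for Lyz2, 37.7% for Hbb-bs, 26.2% for H2-Aa and 39.3% for CD3. The thinned T cells had 0.103% for Lyz2, 16.2% for Hbb-bs and 1.44% for H2-Aa. For Hbb-bs the thinned shares again mix the pools in unlike parts.

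The 4 genes combined in many ways. The commonest combination was Lyz2 with CD3, in 12 cells at a median of 5632 UMIs. Hbb-bs alone came next with 11 cells at a median of 1414 UMIs. Lyz2 with Hbb-bs was found in 9 cells and Lyz2 alone in 6 cells. All 4 genes occurred together in 2 cells, and 4 cells had none of them.

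By pool, the Hbb-bs and CD3 shares moved most. Hbb-bs was found in 11 of 13 Myeloid cells of pool 1 (84.6%), in 28 of 32 of pool 2 (87.5%) and in 0 of 28 of pool LN, which allows a share of up to 10.7%. All other cells showed the same split, with Hbb-bs in 83.3%, 73.8% and 1.30% of cells in pools 1, 2 and LN. Pools 1 and 2 also contained uterine cells per the labels, which are not analysed here, and pool LN did not. CD3 was found in 4 of 13 cells of pool 1 (30.8%, interval 9.09% to 61.4%), in 9 of 32 of pool 2 (28.1%, 13.7% to 46.7%) and in 17 of 28 of pool LN (60.7%, 40.6% to 78.5%). Lyz2 was found in 46.2%, 53.1% and 67.9%, and H2-Aa in 23.1%, 28.1% and 28.6%, of the cells of pools 1, 2 and LN. For CD3, Lyz2 and H2-Aa the intervals of the 3 pools overlapped. A pool is also a set of mice, so pool and mouse cannot be told apart, and these shares were not tested.

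**Figure D1:**
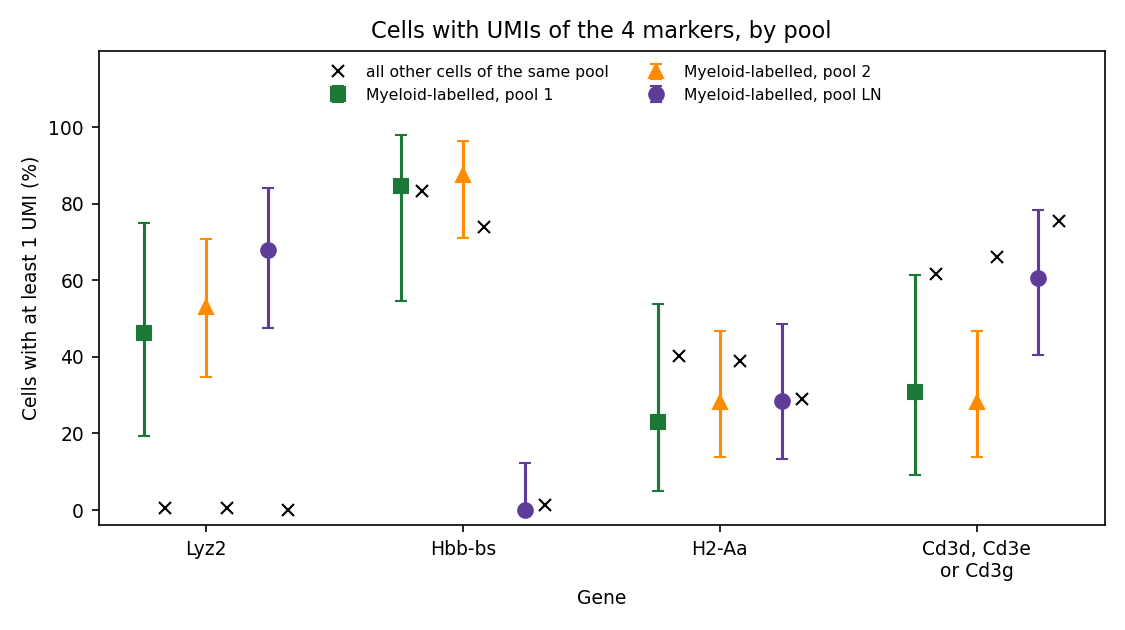
Share of Myeloid-labelled cells (vertical axis, % of cells with at least 1 UMI) for each gene (horizontal axis) in pools 1, 2 and LN, with 95% exact binomial intervals as bars. Crosses give the share in all other cells of the same pool: for Hbb-bs both fall to near 0 in pool LN, and for Lyz2 the crosses lie below 1%.

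By node within each pool the counts were small. In pool LN, CD3 was found in 5 of 10 brLN cells and 12 of 18 udLN cells, and Lyz2 in 6 of 10 and 13 of 18. In pool 2, CD3 was found in 6 of 22 brLN cells and 3 of 10 udLN cells, Lyz2 in 12 of 22 and 5 of 10, H2-Aa in 8 of 22 and 1 of 10, and Hbb-bs in 19 of 22 and 9 of 10. Pool 1 held 3 brLN cells and 10 udLN cells, with CD3 in 0 and 4, Lyz2 in 2 and 4, H2-Aa in 1 and 2, and Hbb-bs in 3 and 8. H2-Aa in pool LN was found in 2 of 10 brLN cells and 6 of 18 udLN cells. Over all pools, CD3 was found in 31.4% of 35 brLN cells (16.9% to 49.3%) and 50.0% of 38 udLN cells (33.4% to 66.6%). Of the brLN cells 22 came from pool 2, and of the udLN cells 18 came from pool LN. Node and pool are thus mixed in these 2 shares, which were not tested.

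Mice differed in both marker shares and cell numbers. H2-Aa was found in 3 of 12 cells of WT mouse 1, 8 of 16 of WT mouse 97 and 0 of 4 of WT mouse 6. In the Aire-DTR mice it was found in 5 of 10 cells of mouse 4, 3 of 9 of mouse 8, 1 of 16 of mouse 36 and 0 of 6 of mouse 7. The counts of 0 allow shares of up to 75% in mouse 6 and 50% in mouse 7. The 2 genotypes overlapped. Lyz2 was found in 9 of 12, 10 of 16 and 1 of 4 cells of WT mice 1, 97 and 6, and in 7 of 10, 5 of 9, 7 of 16 and 3 of 6 cells of Aire-DTR mice 4, 8, 36 and 7. CD3 was found in 7 of 12, 5 of 16 and 0 of 4 cells of the same WT mice, and in 6 of 10, 4 of 9, 4 of 16 and 4 of 6 cells of the Aire-DTR mice in the same order. These ranges overlapped too.

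Neutrophil genes led the class. A cell was counted for a list of marker genes when it had UMIs of at least 3 distinct genes of that list. By this rule 54 of 73 cells (74.0%), from all 7 mice, met the Neutrophil list, of which 11 genes were measured. In all other classes 0 of 7227 cells did, which allows a share of up to 0.0415%. Because cells had been classed on their genes, and the list was chosen with earlier results known, this contrast describes the class. It is no independent check of the label. S100a8 (chromosome 3, 90668978 to 90670035) had 4915 UMIs in 52 Myeloid cells, and S100a9 (chromosome 3, 90692632 to 90695721) had 5860 UMIs in 53. In the 54 cells S100a8 ranged from 0 to 323 UMIs with a median of 57.5, and S100a9 from 0 to 344 with a median of 75. In the other classes S100a8 was a single UMI in each of 10 cells, and S100a9 in each of 25. S100a8 was found in 0 of 996 other cells of pool 1 and 0 of 2217 of pool 2, which allow shares of up to 0.301% and 0.135%.

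Much of the rest of the list was frequent as well, though not all of it. Csf3r, the receptor for the granulocyte growth factor, had UMIs in 54 cells, Il1b, which encodes interleukin 1 beta, in 46, the chemokine receptor gene Cxcr2 in 44, the gelatinase gene Mmp9 in 40, Retnlg in 34 and Lcn2, which encodes an iron-siderophore binding protein, in 30. Camp, a granule gene of immature neutrophils, was at 0. G0s2 was found in 8 Myeloid cells but also in 303 cells of other classes, and Cxcl2 in 7 Myeloid cells. Lyz2 was found in 29 of the 54 cells at a highest value of 25 UMIs, so the Lyz2-rich cells of the class lay elsewhere.

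By the ratio of class CPM (counts scaled to the same total) to the CPM of all other cells, the 25 highest genes were listed among 1249 genes with at least 30 UMIs from at least 4 mice. Cells had been classed on their genes, so the ratios describe the class and were not tested. S100a8 stood at 17403 CPM in the class and 0.443 CPM in other cells. S100a9 stood at 20748 and 1.11 CPM, and Ifitm1 at 2241 and 0.222 CPM. Retnlg (2386 CPM in the class), Lrg1 (471 CPM), Stfa2l1 (276 CPM), the complement receptor gene C5ar1 (223 CPM), Mcemp1 (220 CPM), Tnfaip2 (181 CPM), Asprv1 (138 CPM) and Chil1 (135 CPM) had 0 UMIs in all other cells. Hp, which encodes haptoglobin, stood at 698 CPM, Wfdc21 at 545 CPM, Ccl6 at 563 CPM, Pla2g7 at 336 CPM, Igfbp6 at 138 CPM and Alox5ap, a gene of leukotriene synthesis, at 1353 CPM. The macrophage growth factor receptor gene Csf1r was on the list at 145 CPM, as were Cd300c2 at 166 CPM, Sirpb1b at 135 CPM and Lyz2 at 3612 CPM. Stfa2l1, Sirpb1b and Cd300c2 belong to families of close copies, so their own levels are uncertain.

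S100a8 was high in every mouse whose Myeloid cells were summed. It stood at 45935 CPM in Aire-DTR mouse 7, 18770 CPM in mouse 8, 10286 CPM in mouse 36 and 9692 CPM in mouse 4, and at 21081 CPM in WT mouse 1 and 13515 CPM in WT mouse 97. Mouse 7 was highest, and its 6 Myeloid cells all met the Neutrophil list. Across mice, cells that met the list were 10 of 12 in mouse 1, 10 of 16 in mouse 97, 4 of 4 in mouse 6, 6 of 10 in mouse 4, 7 of 9 in mouse 8 and 11 of 16 in mouse 36.

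Signalling genes that myeloid cells share were found in nearly all members. Cells had been classed on their genes, so these counts describe the class and are no independent check of the label. Tyrobp, the adaptor through which many myeloid receptors signal, had a UMI in 72 of 73 cells, with 4422 CPM against 43.6 CPM in other cells. The Fc receptor gamma chain gene Fcer1g was found in 69 cells, the lineage transcription factor gene Spi1 in 56, Pirb in 44, Cebpb in 42, Fcgr3 in 39, the beta-glucan receptor gene Clec7a in 35, the cytokine receptor gene Csf2rb in 28, Sirpa in 25, Csf2ra in 22, Clec4e in 18, Lilrb4a in 13, and Fcgr2b and Cd14 in 10 each. At least 3 genes of this list were found in 71 Myeloid cells, against 1.22% of all other cells. Of the lysosomal and antigen processing genes, Cst3 was found in 69 cells, Psap in 59, Ctss in 47, Ctsd in 44 and Npc2 in 43, and 69 cells met that list. That list is not specific, since 75.6% of other cells met it as well.

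Cells with T cell genes were a large minority. The T cell list, all 19 genes measured, was met by 26 of 73 cells (35.6%), against 70.3% of all other cells, which include the T cells. The distribution in the class had a wide gap. No cell had 4 to 7 of its genes. Of the cells that met the list, 24 had 8 to 17 T cell genes and 2 had 3, and 38 of the 73 cells had 0. Cd3g had UMIs in 27 cells, Cd3d in 26, the signalling genes Lat in 24 and Lck in 23, Skap1 in 21, Cd2 in 20, the transcription factor genes Tcf7 in 17 and Bcl11b in 14, Cd247 in 17 and the receptor constant region gene Trac in 16. The 24 cells with at least 2 CD3 UMIs had 7 to 22 of them with a median of 13. In the T cell classes, cells with at least 2 had a median of 11 CD3 UMIs. The remaining 6 CD3-positive Myeloid cells had 1 CD3 UMI each.

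Most of these cells also met the Neutrophil list. Both lists were met by 18 cells, 33.3% of the 54 and 69.2% of the 26, and they came from 6 mice. Neutrophil list cells that met neither the T nor the B cell list had a median of 1231 UMIs, and those that also met the T cell list a median of 5632. The T cell classes had a median of 3221 UMIs. The order held in each pool: 6839 against 1028 UMIs in pool 1, 4341 against 1414 in pool 2 and 5619 against 1077 in pool LN, over 3 and 7, 2 and 17, and 13 and 7 cells. In UMIs per cell, S100a8 was not lower where T cell genes were present. Its median was 160.5 UMIs in the 18 cells and 41 UMIs in the 31 without lymphocyte genes, and in pool LN 221 and 49 UMIs. As a share of a cell's UMIs, S100a8 and S100a9 together were lower there, at a median of 5.30% in the 18 cells and 6.24% in the 31. By pool the medians were 2.09% and 4.92% in pool 1, 5.13% and 5.18% in pool 2, and 7.02% and 8.55% in pool LN. Whether these barcodes hold 1 cell or more than 1 was not tested, and no doublet removal was made here.

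**Figure D2:**
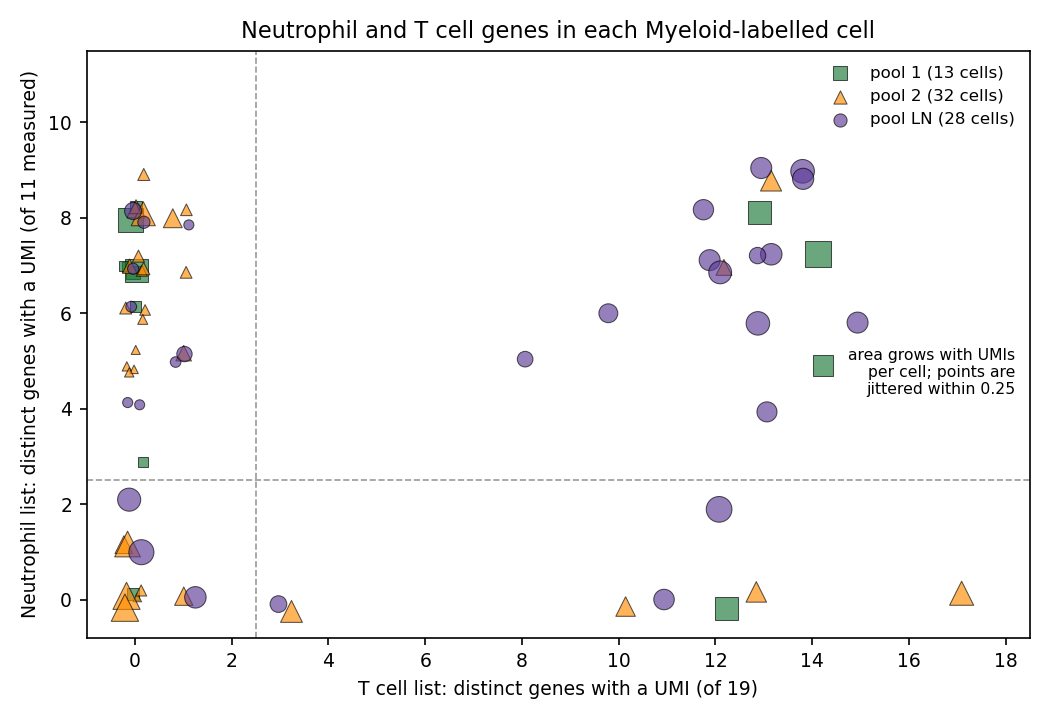
Distinct T cell list genes (horizontal axis) and distinct Neutrophil list genes (vertical axis) with a UMI in each of the 73 cells, with colour and shape for the pool and area for UMIs per cell. Dashed lines mark 3 genes: 18 cells lie beyond both, 13 of them from pool LN, and no cell lies between 3 and 8 T cell genes.

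Cd8 transcripts were common in these cells. Of the 18 cells with both lists, 12 had Cd8a or Cd8b1 UMIs (66.7%, interval 41.0% to 86.7%), 1 of them with Cd4 as well, 1 had Cd4 alone and 5 had neither. In the T cell classes, 51.9% of 4906 cells had Cd8a or Cd8b1 UMIs and 19.6% had Cd4 alone. The 18 cells had a median of 5632 UMIs against 3221 in the T cell classes, and 13 of them came from pool LN. These shares are thus not at equal depth, and they were not tested. Of the 8 Myeloid cells with T but under 3 Neutrophil list genes, 5 had Cd8a or Cd8b1 UMIs.

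T cell genes were more frequent in pool LN. The T cell list was met by 16 of 28 cells there (57.1%), by 4 of 13 in pool 1 (30.8%) and by 6 of 32 in pool 2 (18.8%). By mouse the shares were 58.3%, 50.0% and 66.7% in mice 1, 4 and 7 of pool LN. They were 44.4% and 0% in mice 8 and 6 of pool 1, and 12.5% and 25% in mice 36 and 97 of pool 2. The 3 mice of pool LN thus lay above the other 4. Wells of pool LN held 2127 and 1915 distinct cells, those of pool 2 1070 and 1179, and those of pool 1 510 and 499. Myeloid cells of pools 1, 2 and LN had medians of 2006, 2043.5 and 5154 UMIs. The parts of cell number per well and of UMIs per cell in this difference were not tested. Pool LN was also highest in other cells, but pools 1 and 2 stood there in the reverse order. CD3 was found in 61.5%, 66.2% and 75.6% of all other cells, and in 4.87%, 8.18% and 11.6% of B cells, of pools 1, 2 and LN. Over all pools, 6.13% of cells in the B class met the T cell list.

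B cell genes formed a smaller group. The B cell list was met by 10 cells (13.7%), against 36.2% of all other cells, which include the B cells. In the classes other than B, from 3.76% (CD4+ Naive T) to 12.3% (CD8+ Mem T) of cells met it. Of the 10 Myeloid cells, 8 had 7 to 13 of its 15 genes and 2 had 3. Cd79a, which encodes a signalling chain of the antigen receptor of B cells, was found in 8 cells. The Neutrophil list was also met by 7 of the 10 cells, and T cell, B cell and Neutrophil lists together by 2 cells, both from udLN of Aire-DTR mice. The 5 cells with neutrophil and B cell genes had a median of 3574 UMIs, against 2261 in the B class. Every one of these 5 cells had H2-Aa UMIs.

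MHC class II transcripts followed the B cell and non-neutrophil cells. The MHC class II list was met by 21 cells (28.8%), against 32.4% of all other cells, which include the B cells. Of the 21 cells, 7 also met the Neutrophil list, and the 10 cells of the B cell list were all among the 21. H2-Aa was found in 0 of the 31 cells with Neutrophil list genes alone and in 0 of the 16 with neutrophil and T cell genes only, which allow shares of up to 9.68% and 18.8%. Of the 19 cells with under 3 neutrophil genes, 13 had H2-Aa UMIs. The invariant chain gene Cd74 was found in 31 cells at up to 326 UMIs, H2-Eb1 in 20 cells, H2-DMa, a peptide loading gene, in 19, H2-Ab1 in 18, and H2-DMb1 and H2-DMb2 in 13 each. H2-Aa stood at 2301 CPM in the class and 2102 CPM in all other cells, which include 2267 B cells.

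**Figure D3:**
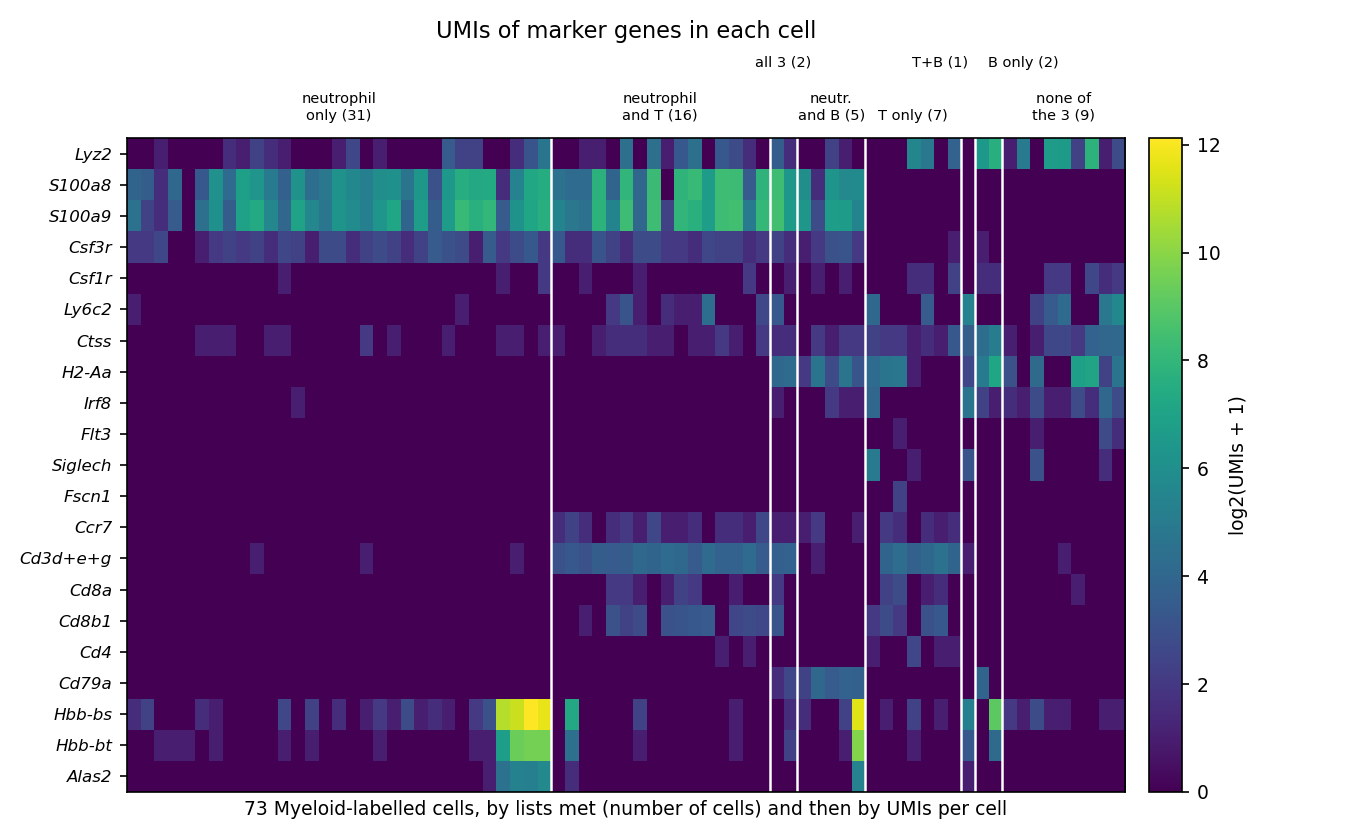
UMIs of 21 marker measures (rows, colour as log2 of UMIs plus 1) in the 73 cells (columns), grouped by which of the Neutrophil, T and B cell lists each met and ordered by UMIs per cell within a group. S100a8 and S100a9 fill the left blocks, Cd3 appears in the T cell blocks, H2-Aa in the B cell blocks, in 4 of the 7 cells with T cell list genes only and in the last block, and 5 columns carry at least 1000 Hbb-bs UMIs.

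The 19 cells with under 3 neutrophil genes were a mixture of their own. They came with Lyz2 in 13 cells, Csf1r in 10 and Siglech in 5, and 8 of the 19 met the T cell list. Lyz2 was at least 28 UMIs in 8 of them and highest, at 227 UMIs, in a udLN cell of Aire-DTR mouse 4 that also had 134 H2-Aa UMIs. The next highest was a brLN cell of WT mouse 97 with 195 Lyz2 and 145 H2-Aa UMIs. The macrophage genes Adgre1, Ms4a7 and C1qc were found in 1, 1 and 3 cells of the class. The monocyte gene Ccr2 was found in 8 cells, Ms4a6c in 12, Cd68 in 20, and Ly6c2, which shares reads with a close copy and is uncertain, in 19. The Monocyte and macrophage list was met by 72 cells, against 12.3% of other cells. But it includes Tyrobp, Fcer1g, Lst1 (59 cells) and Cst3, which the neutrophil-gene cells carried as well.

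Of the 3 dendritic cell lists, the Plasmacytoid list was met by 18 cells (24.7%) against 14.5% of other cells, the Conventional list by 14 (19.2%) against 1.22%, and the Migratory list by 8 of the 73 against 8.70%. Siglech (chromosome 7, 55768178 to 55778925) was found in 5 cells of 4 mice, with 31, 8, 7, 2 and 1 UMIs. The cell with 31 came from brLN of Aire-DTR mouse 4 and also had 15 UMIs of Irf8, a transcription factor gene of dendritic cells. The cell with 8 came from brLN of WT mouse 97 and had 24. Those 2 cells were the ones that met the T cell list with 3 genes. The conventional dendritic cell genes Flt3, Batf3 and Zbtb46 were found in 4, 2 and 2 cells. A single cell, from udLN of WT mouse 1, had 10 genes of the Migratory dendritic cell list, with 4 UMIs of Fscn1, 26 of H2-Aa and 19 of CD3. Ccr7, the receptor that guides dendritic cells and naive T cells into nodes, was found in 24 cells but also in 4161 other cells, and Ccl22 was at 0.

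Hbb-bs was concentrated in a handful of cells. The class held 15580 of the 24938 Hbb-bs UMIs of all cells (62.5%), and 94.9% of the class's UMIs lay in 5 cells with 4454, 3387, 2909, 2278 and 1754 UMIs. These were a brLN and a udLN cell of WT mouse 97, a brLN and a udLN cell of Aire-DTR mouse 8 and a udLN cell of Aire-DTR mouse 36. Each of the 5 met the Neutrophil list, with 5 to 8 of its genes, and 1 met the B cell list too. Hbb-bs made up 42.3% to 61.1% of their UMIs. They also carried 105 to 939 UMIs of Hbb-bt and 22 to 52 of Alas2, the first enzyme of haem synthesis in red cells. No cell of another class reached 1000 Hbb-bs UMIs, and the highest had 563. Hbb-bs and Hbb-bt are near-identical neighbours, so the split of reads between them is uncertain.

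Outside those 5 cells the globin level was low. Of the 39 Myeloid cells with Hbb-bs, 31 had 1 to 7 UMIs, and 3 had 527, 156 and 37. T cells of pools 1 and 2 had a UMI in 84.4% and 75.4% of cells with a median of 2 UMIs, so a few Hbb-bs UMIs in a Myeloid cell of those pools lie at the background of the library. Without the 5 cells the class stood at 858 CPM in pool 1 against 1002 CPM in all other cells. In pool 2 it stood at 8202 CPM against 860 CPM, where the cell with 527 UMIs was among those summed, and in pool LN at 0 against 5.53 CPM.

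**Figure D4:**
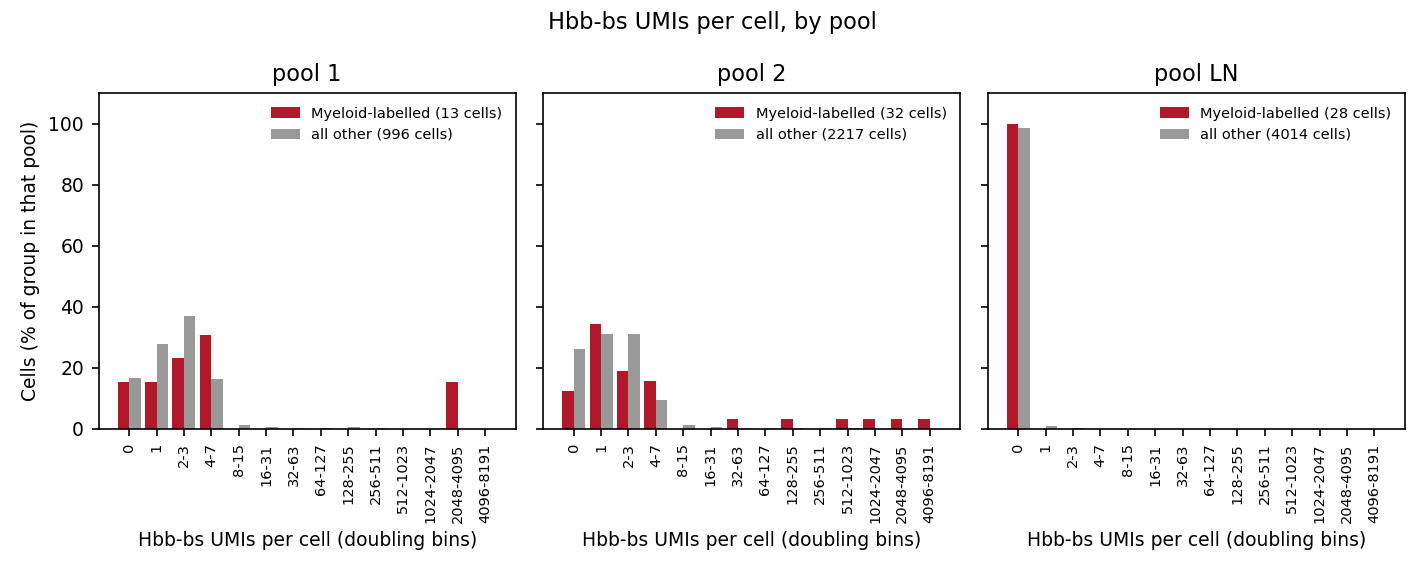
Hbb-bs UMIs per cell in bins that double (horizontal axis) and the share of cells in each bin (vertical axis, %) for Myeloid-labelled and all other cells of each pool. In pools 1 and 2 most cells of both kinds have 0 to 7 UMIs and 5 Myeloid cells have over 1000, and in pool LN all 28 Myeloid cells have 0.

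The remaining lists ranged from 0 to 41 cells. The Erythroid list was met by 16 cells (21.9%) against 9.51% of other cells, and these shares mix the pools in unlike parts. Hba-a1 and Hba-a2, alpha globin genes with near-identical sequence, were found in 12 cells each. Hdc, which encodes the histamine-making enzyme of basophils, mast cells and neutrophils, was found in 40 cells, whereas Cpa3, Kit and Il4 were at 0, and 0 cells met the Mast cell and basophil list. The Plasma cell, Stromal and endothelial, and Platelet and megakaryocyte lists were met by 0 cells, the last with 1 gene measured. The NK list was met by 5 cells (6.85%) against 10.7% of other cells. All 5 met the T cell list, and Ncr1, Klrb1c and Gzma were at 0. The Proliferation list was met by 18 cells (24.7%) against 14.1% of other cells. Of its genes, Hmgb2 was found in 51 cells, Tubb5 in 31 and H2afz in 30, and the mitotic genes Mki67 in 1 and Top2a in 2. The Type I interferon response list was met by 41 cells against 29.5% of other cells, with Ifi27l2a in 52 cells, Irf7 in 35, Bst2 in 30 and Oasl2 in 26.

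The first comparison asked whether the class took a different share of the 2 lymph nodes of each mouse. Myeloid cells made up 1.81% ± 0.73 (SD, n = 7 mice) of udLN cells and 0.667% ± 0.480 (SD, n = 7) of brLN cells. In udLN the shares were 2.19% in WT mouse 1, 1.97% in WT mouse 6 and 2.08% in WT mouse 97, and 0.985%, 0.604%, 2.24% and 2.59% in Aire-DTR mice 4, 7, 8 and 36. In brLN they were 0.403%, 0.394% and 1.70% in the WT mice, and 0.383%, 0.377%, 0.690% and 0.720% in the Aire-DTR mice, in the same orders. The udLN was higher in 7 of 7 mice, though the value of mouse 97 rests on 1 of 48 udLN cells.

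The difference passed the test. The log2 difference was 1.57 (SE 0.26, adjusted p = 0.00115, quasi-likelihood test of edgeR on numbers of cells, with mouse as a block and Benjamini-Hochberg adjustment over 9 classes). Myeloid was the 1 class of 9 called in this comparison (11.1%). An exact two-sided sign-flip permutation over the mice gave p = 0.0156, the smallest that 7 mice allow. Counting only the cells that met the Neutrophil list, the log2 difference was 1.47 (adjusted p = 0.00366), and it was 1.72 (adjusted p = 0.0234) over cells that met neither the T nor the B cell list. The call was lost over cells with no CD3 UMI (1.16, adjusted p = 0.0970), over the 19 cells with under 3 neutrophil genes (1.76, adjusted p = 0.208), over cells that met the T or B cell list (1.32, adjusted p = 0.0964), and without pool LN (1.54, adjusted p = 0.0787).

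**Figure D5:**
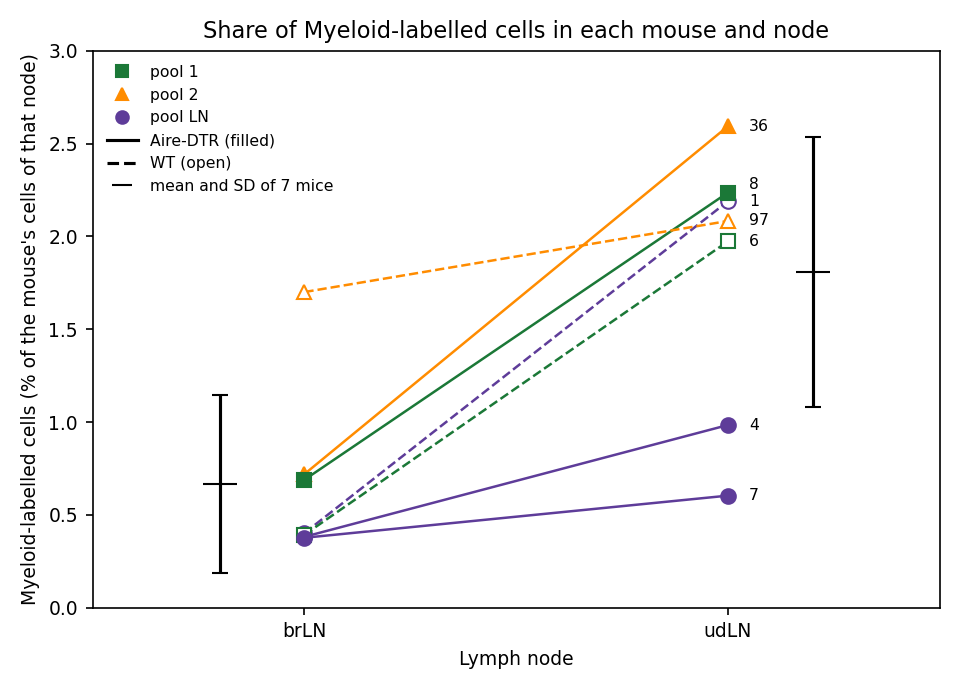
Myeloid-labelled cells as a share of the cells of each mouse and node (vertical axis, %) in brLN and udLN (horizontal axis), with lines joining the nodes of 1 mouse, mouse numbers at the right and the mean with SD of 7 mice beside each node. All 7 lines rise from brLN to udLN, by least for mice 7 and 97.

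The genotype comparison asked whether depletion of Aire-expressing cells changed the share of the class. Over both nodes, the mean Myeloid share was 0.951% ± 0.487 (SD, n = 4) for Aire-DTR mice and 1.25% ± 0.41 (SD, n = 3) for WT mice. The Aire-DTR values were 0.431% (mouse 7), 0.669% (mouse 4), 1.21% (mouse 36) and 1.49% (mouse 8), and the WT values 0.985% (mouse 6), 1.04% (mouse 1) and 1.72% (mouse 97). The groups overlapped. Within pools, the Aire-DTR mouse was above the WT mouse in pool 1 and below it in pool 2, and both Aire-DTR mice of pool LN were below its WT mouse. The log2 difference was -0.45 (SE 0.37, edgeR with pool as a term, adjusted p = 0.465), and the exact two-sided permutation gave p = 0.4, where the smallest possible is 0.0571. Of the 9 classes, 0 were called (0%).

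By node the genotypes overlapped as well. In brLN the mean of the Aire-DTR mice was 0.542% ± 0.188 (SD, n = 4) and that of the WT mice 0.832% ± 0.752 (SD, n = 3) (log2 difference -0.69, edgeR adjusted p = 0.430). In udLN they were 1.60% ± 0.96 (SD, n = 4) and 2.08% ± 0.11 (SD, n = 3) (log2 difference -0.61, edgeR adjusted p = 0.756). The genotype difference in udLN minus that in brLN was -0.26 on the log2 scale (edgeR adjusted p = 0.854).

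Gene levels in the class were compared between genotypes over the 6 mice with at least 5 Myeloid cells, 4 Aire-DTR and 2 WT, whose sums held 21879 to 66222 UMIs. Mouse 6, with 4 cells, was left out, so pool 1 was represented by mouse 8 alone, and 2 residual degrees of freedom remained. Of 1135 genes tested, 0 passed an adjusted p of 0.05 in edgeR's quasi-likelihood test (0%), 33 had an unadjusted p under 0.05, and DESeq2 called 0 with 6 at an unadjusted p under 0.05. A sum over cells cannot tell a change in the mixture of cells from a change within them.

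Of the 5 genes with the smallest p, 4 were at 0 in at least 3 of the 6 mice. Hbb-bt stood at 0 in the 3 mice of pool LN, at 36249 CPM in Aire-DTR mouse 8, 3081 CPM in Aire-DTR mouse 36 and 22259 CPM in WT mouse 97, so within a pool only mice 36 and 97 could be compared (log2 difference -3.00, SE 0.41, edgeR adjusted p = 0.0803). Hbb-bs followed with -1.45 (edgeR adjusted p = 0.290). The chemokine gene Ccl5 stood at 1027 CPM in WT mouse 1 and at 0 to 85.4 CPM in the other 5 mice (-4.15, edgeR adjusted p = 0.290). The T cell receptor segment Trbv16 had UMIs in Aire-DTR mice 4 (491 CPM) and 7 (366 CPM) only, and Gabarapl2, an autophagy gene, differed by -2.15 (edgeR adjusted p = 0.999 for both).

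The markers did not pass either. Lyz2 stood at 7344, 2331, 1312 and 5878 CPM in Aire-DTR mice 4, 7, 8 and 36, and at 587 and 4258 CPM in WT mice 1 and 97 (log2 difference 1.67, SE 0.72, edgeR adjusted p = 0.999). H2-Aa stood at 4782, 0, 910 and 94.8 CPM in the Aire-DTR mice and at 2679 and 3518 CPM in the WT mice, in the same orders (-2.09, SE 1.57, edgeR adjusted p = 0.999). Both sets of values overlapped between genotypes. They rest in part on single cells. The highest cell held 134 of 224, 18 of 43 and 4 of 4 H2-Aa UMIs in Aire-DTR mice 4, 8 and 36. In WT mice 1 and 97 it held 114 of 146 and 145 of 233. For Lyz2 the highest cell held 227 of 344, 21 of 51, 28 of 62 and 104 of 248 UMIs in the Aire-DTR mice. In the WT mice it held 9 of 32 and 195 of 282. The log2 differences were -0.11 for S100a8, 0.06 for S100a9, -0.13 for Cd3d, -0.93 for Cd3e and 0.12 for Cd3g. Of the 7 MHC class II genes tested, 0 were called, 1 was above 0 and the median log2 difference was -2.09, beside 557 of 1135 genes above 0 and a median of -0.01 over all genes tested. Of 8 Neutrophil list genes tested, 0 were called, 5 were above 0 and the median was 0.01. Of 11 T cell list genes tested, 0 were called, 4 were above 0 and the median was -0.24. Without mouse 4 the count of called genes became 15 of 1079 tested, of which 14 were lower in Aire-DTR mice. Among the 15 were Cd74, H2-Aa, H2-Eb1 and H2-Ab1, and also Hbb-bt, Tmem176a, Tmem176b, Ccl5, Retnlg, Cd79a, Bpgm and Mkrn1. That fit had fewer residual degrees of freedom than the main fit. Within pools it compared only mouse 7 with mouse 1 and mouse 36 with mouse 97, and H2-Aa was at 0 in mouse 7. Without mouse 7 the count was 2 of 1040 (Hbb-bs and Hbb-bt), again with fewer residual degrees of freedom. Without mouse 97 a lone WT mouse remained.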

How the data were processed

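The authors' deposited matrix holds UMI counts, whole numbers per cell and gene, with mouse, tissue, genotype, phenotype and cell type of each cell in a deposited table. The submitters' processing notes name GRCm38, Seurat, Scanpy 1.7.0, bustools 0.40.0 and kallisto 0.46.1. The assignment of hashtags, the treatment of doublets and the naming of cell types were steps not given in the sources used here. Other deposited files hold scaled values and were not used.

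The members and the gene lists were chosen with earlier results of these data known. Second copies of cells with the same well, barcode and counts were dropped. No doublet caller was run. Labels give no sign of whether the wells of a pool were separate samples, and the mouse was the replicate. Cell numbers of 9 classes and UMI counts summed per mouse (at least 5 Myeloid cells) were tested with edgeR 4.0.16 (quasi-likelihood, filterByExpr and TMM for genes, pool or mouse as a term, Benjamini-Hochberg, threshold 0.05) in R 4.3.3. An SE is the size of the log2 difference divided by the root of its F statistic. DESeq2 1.42.0 was an alternative, as were other scalings, filters, class definitions, mice left out and both copies kept. Scripts were tested on simulated data. Exact permutations and intervals used scipy 1.17.1.

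Named genes were the 4 markers, Aire, list members in at least 10 Myeloid cells, the 25 genes with the largest CPM ratio to other cells, and in the genotype comparison the 5 smallest p. Members found in fewer cells, and genes at 0, were named after their values were seen. A ratio used at least 3 UMIs for the other cells. Coordinates are from GENCODE vM21 (GRCm38), matched by symbol. Some items examined are not reported here.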

Additional observations from a re-analysis of the deposited data

How the results depend on the processing

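The node difference in the share of the class (log2 1.57) kept its direction in all 18 alternatives and its call in 14, at 1.16 to 1.76 with adjusted p 0.000557 to 0.208. It was 1.16 over cells without a CD3 UMI, 1.76 over cells with under 3 neutrophil genes, 1.32 over cells with T or B cell list genes and 1.54 without pool LN, none of which passed. These 4 rest on fewer cells or mice than the main fit, but so do alternatives that kept the call. Over cells that met neither the T nor the B cell list it was 1.72 (edgeR adjusted p = 0.0234). Why the 4 lost the call was not tested. The genotype difference in the share (-0.45) stayed below 0 and under no alternative of 14 passed (-0.69 to -0.18, adjusted p 0.212 to 0.915). The count of called genes, 0, became 1 with RLE size factors and 6 with no filter on low counts, and ranged from 0 to 15 with 1 mouse left out. The count of 15, of 1079 genes tested, came without mouse 4, in a fit with fewer residual degrees of freedom than the main fit. Without mouse 1 or 97 a lone WT mouse is assumed to vary like the others. The count stayed 0 with both copies of the repeated cells and without the cells of 1000 or more Hbb-bs UMIs. With cells that have no CD3 UMI, 4 mice remained and were fitted without the pool term, again with 0. The brLN cells alone left 2 mice and were not fitted. With at least 2 UMIs required, Lyz2 was found in 42.5% of the class. The other 3 marker shares moved by less than the SD between mice in 10 alternatives each. For Hbb-bs that SD was 48.2 percentage points, which includes the split between pools and is a weak yardstick. Its share ranged from 35.6% to 63.9%. Counts of cells per list with 2 or 4 genes required ranged from 53 to 56 for the Neutrophil list and from 24 to 26 for the T cell list. The Conventional dendritic cell list, with 14 cells, moved to 32 and 6, the Plasmacytoid list, with 18, to 33 and 8, and the Migratory list, with 8, to 22 and 1. The class definitions by lists, the pools left out, the repeated cells kept and the globin-rich cells left out were chosen after seeing the data. The node comparison paired the nodes of each mouse. No paired analysis was possible because, for the genotypes, the replicate numbers in the labels number the wells of a pool, and each well mixes mice of both genotypes. The number of cells limits the precision, with 73 cells over 7 mice and 1 to 15 cells per mouse and node.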
